A study of Mus musculus with 2 samples.

Results

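Fc receptors bind the constant part of antibodies, and ITAM adaptors carry their signal into the cell. The group described here has 8 genes, chosen by name and found by NCBI Gene ID among the 23248 genes listed in either of 2 RNA-seq libraries of mouse splenic regulatory T (Treg) cells. It holds 4 receptors for immunoglobulin G (Fcgr1, Fcgr2b, Fcgr3 and Fcgr4), the adaptors Fcer1g and Tyrobp, the immunoglobulin E receptor Fcer2a (CD23) and the neonatal Fc receptor Fcgrt. All 8 were listed in both libraries, and all 8 reached 1 FPKM (fragments per kilobase of transcript, scaled to library size) in at least 1 of them.

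The healthy library came from mice injected with PBS, and the leukemia library from mice given 800000 leukemia cells without irradiation and taken at day 18, when leukemia mice live 30 to 40 days in all. Both groups, aged 6 to 8 weeks, carried the Foxp3tm3(DTR/GFP)Ayr allele on a B6.129(Cg) background, so host Treg cells in both expressed a diphtheria toxin receptor and a green fluorescent protein (GFP) under the Foxp3 gene. The sorted spleen cells were CD4+ and FOXP3-GFP+. Each group is 1 library, so no difference below has a replicate check, and the sources used here do not give how many mice a library represents or which leukemia cells were transplanted.

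Activating Fc gamma receptors have no signalling motif of their own in the mouse and sit in the membrane with a dimer of Fcer1g, the common Fc receptor gamma chain. Its immunoreceptor tyrosine-based activation motif (ITAM), once phosphorylated by Src family kinases, recruits the kinase Syk. Tyrobp (DAP12) is a related ITAM adaptor used by many receptors of myeloid and natural killer cells, while Fcgr2b carries an inhibitory motif (ITIM) that recruits the phosphatase SHIP-1, encoded by Inpp5d. These genes are known for macrophages, monocytes, granulocytes, mast cells and B cells. T cells use the CD3 chains and Zap70 in their place.

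Summed over all genes, the healthy library held 8929601 and the leukemia library 8897162 estimated reads. All 14 T cell markers, Foxp3 and Cd4 among them, were present in both, with summed levels of 3598 and 2577 FPKM. Markers of other cells were present too, and some of these lists differed between the libraries. The 16 macrophage markers summed to 1132 FPKM in healthy cells and 628 FPKM in leukemia, with 15 of the 16 at a log2 ratio of FPKM + 1 below 0 and 5 of them at -1 or less. The 11 markers of myeloid progenitors summed to 4.89 and 1252 FPKM, and all 11 were at least 2-fold higher in leukemia. The 10 monocyte markers summed to 235 and 835 FPKM, with 6 at a log2 ratio of 1 or more. The part of such other cells in the results below was not tested. In bulk RNA, fewer cells of a type and less RNA per cell cannot be told apart.

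Some sequences bear on how the values can be read. Fcgr2b and Fcgr3 have near-identical extracellular parts, so that a read from the shared stretch cannot be placed by sequence alone. Of the distinct 50-base words in protein-coding GENCODE transcripts of Fcgr3, 10.2% also occurred in Fcgr2b, and 4.48% of those of Fcgr2b occurred in Fcgr3, searched on the transcript strand. In all, 6.72% of the words of Fcgr2b occurred in 47 other genes, Fcgr3 among them. No 50-base word of Fcgr1, Fcgr4, Fcer1g, Fcgrt or Tyrobp occurred in a transcript of another gene. The longest run that the coding sequences of Fcgr2b and Fcgr3 share is 129 bases long and crosses exon borders in both, lying within chr1:170966674-170968081 for Fcgr2b and chr1:171054167-171057792 for Fcgr3 (GRCm38, minus strand, coding exons).
Fcgr2b and Fcgr3 shared coding run: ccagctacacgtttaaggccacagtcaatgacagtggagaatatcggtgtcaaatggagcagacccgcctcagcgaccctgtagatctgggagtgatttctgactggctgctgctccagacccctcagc

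The regions just before the start sites are shown for Fcer1g and for the 3 members whose upstream windows hold GAGGAA, the core of sites bound by PU.1, the myeloid transcription factor encoded by Spi1. The windows are the last 150 bases before the first listed start in RefSeq (GRCm38.p6), written 5′ to 3′ on the gene's strand, with matches in capitals. A match on the other strand reads TTCCTC, as all matches here do.
Fcgr1 (chr3:96293970-96294119, minus strand): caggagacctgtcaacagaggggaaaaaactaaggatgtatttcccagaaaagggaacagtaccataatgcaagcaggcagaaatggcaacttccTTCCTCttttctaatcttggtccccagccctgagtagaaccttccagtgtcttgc
Fcgr3 (chr1:171059404-171059553, minus strand): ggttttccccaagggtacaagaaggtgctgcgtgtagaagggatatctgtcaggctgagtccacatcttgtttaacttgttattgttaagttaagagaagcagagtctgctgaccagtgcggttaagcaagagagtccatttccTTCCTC
Fcgr4 (chr1:171018776-171018925, plus strand): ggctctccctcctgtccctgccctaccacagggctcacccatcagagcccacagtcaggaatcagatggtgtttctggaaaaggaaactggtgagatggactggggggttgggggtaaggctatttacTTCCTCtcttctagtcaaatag
Fcer1g (chr1:171234350-171234499, minus strand): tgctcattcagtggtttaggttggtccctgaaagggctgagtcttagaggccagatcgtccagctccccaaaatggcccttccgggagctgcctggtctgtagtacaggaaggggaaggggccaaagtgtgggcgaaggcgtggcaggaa

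The promoter table held 7 of the 8 members, all but Tyrobp. Over 250 bases upstream of the start, 3 of these 7 genes held GAGGAA or its complement, Fcgr1 at position -55, Fcgr3 at -6 and Fcgr4 at -22, counted from the start site to the first base of the match. Among all 27025 genes of the table, 25.9% had a window with a match, and of its 32851 windows 23.3% did. Fcer1g, Fcgr2b, Fcgrt and Fcer2a had none, which says only that these letters are not in their windows. The FPKM of Spi1 itself was 9.40 in healthy and 55.1 in leukemia cells. Of the 3 genes with a match, Fcgr3 was higher and Fcgr1 and Fcgr4 were lower in leukemia, as given below. Any role of PU.1 in these levels was not tested.

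The 8 genes went in different directions. The adaptors Tyrobp and Fcer1g, the receptor Fcgr3 and most of all the inhibitory receptor Fcgr2b were higher in the leukemia library, the activating receptors Fcgr1 and Fcgr4 and the neonatal receptor Fcgrt were lower, and the interval of Fcer2a spanned 1. By the rule of size used here, a log2 ratio of FPKM + 1 of at least 1 or at most -1, 2 of 8 were higher (Fcgr2b and Tyrobp) and 0 were lower, against 6.55% higher and 1.95% lower among the 13717 genes that reached 1 FPKM in at least 1 library. In genes, that is 898 higher and 267 lower. Centring on T cell receptor signalling genes, which moves the median log2 ratio of all genes to 0.44, gives 1837 and 153. Centring on macrophage markers, chosen after seeing the data, moves it to 0.90 and gives 5617 and 106, and turns the sign of Fcgr4 (0.40) and Fcgrt (0.35), with neither called. The added 1 FPKM understates ratios of low genes. By a second measure, the read ratio with its exact 95% interval (Clopper-Pearson), which covers counting error only, 4 of 8 had an interval above 1 and 3 of 8 one below 1. Among all 13717 genes these shares were 29.0% and 23.5%. The median log2 ratio of the 8 was 0.40, beside 0.02 over all genes.

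**Figure D1:**
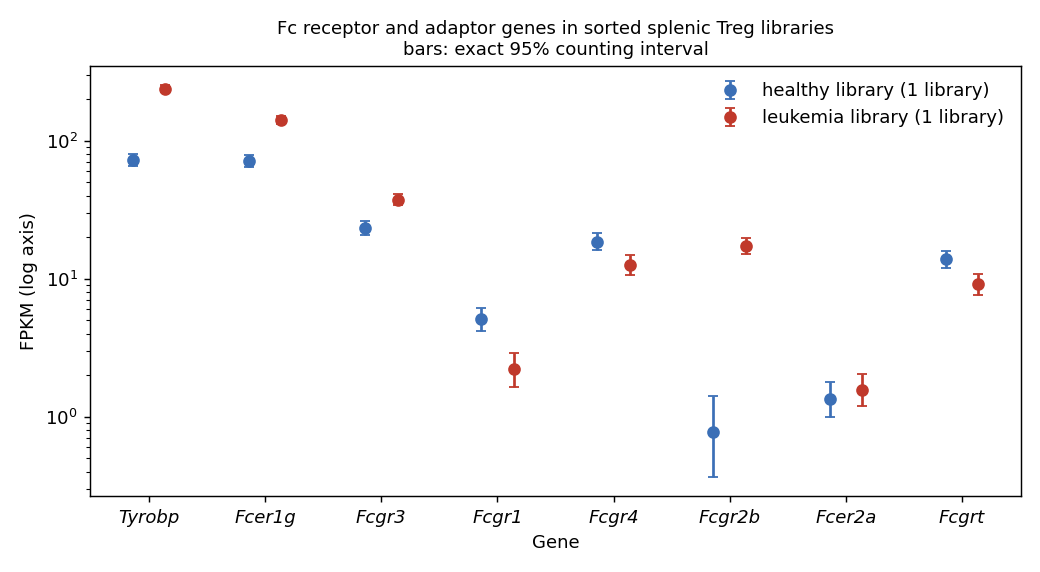
FPKM (log axis) of the 8 genes in the healthy (blue) and leukemia (red) library, 1 library each, with exact 95% counting intervals as bars. Tyrobp and Fcer1g are highest in both, and Fcgr2b goes from the lowest of the 8 at 0.78 FPKM to the fourth at 17.2 FPKM.

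Among the adaptors, Tyrobp was at 72.5 FPKM (363 reads) in the healthy and 238 FPKM (1188 reads) in the leukemia library. The leukemia value is thus the higher, with a read ratio of 3.28 (95% interval 2.92 to 3.70) and a log2 ratio of 1.70. Fcer1g stood at 71.5 FPKM (421 reads) and 141 FPKM (829 reads). It too was higher in leukemia, with a read ratio of 1.98 (1.76 to 2.23), but its log2 ratio of 0.97 was just short of the 2-fold rule, which it passed at 1.43 when centred on T cell genes. Within a library the ratio of Tyrobp to Fcer1g in FPKM was 1.01 in healthy and 1.69 in leukemia. The odds ratio of their reads between the libraries was 1.66 (exact 95% interval 1.40 to 1.97), and this does not depend on how the libraries are scaled to each other. The gene next to Tyrobp, Hcst, encodes DAP10, an adaptor without an ITAM that T cells also use. It stood at 55.5 and 48.2 FPKM, on 210 and 182 reads.

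Fcgr2b, the inhibitory receptor, had 0.78 FPKM in healthy and 17.2 FPKM in leukemia cells, on 10.2 and 228 estimated reads. Its read ratio of 22.9 (12.2 to 48.4) was the highest of the 8, and its log2 ratio was 3.35. It lay at percentile 99.6 of log2 ratios over all genes at 1 FPKM or more. The healthy level rests on few reads, some of them shared out between Fcgr2b and Fcgr3 by estimate. Summed, so that sharing between these 2 cannot matter, they had 291 and 675 reads, a read ratio of 2.33 (2.03 to 2.68). The sum does not deal with words that Fcgr2b shares with other genes.

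Of the activating receptors, Fcgr3 was also higher in leukemia, though by less than Fcgr2b, while Fcgr1 and Fcgr4 were lower. Fcgr3 (CD16), a low-affinity receptor of many myeloid cells and natural killer cells, stood at 23.3 FPKM (281 reads) in healthy and 37.4 FPKM (447 reads) in leukemia, a read ratio of 1.60 (1.37 to 1.86) and a log2 ratio of 0.66, or 1.11 when centred on T cell genes. Fcgr1 (CD64), the high-affinity receptor typical of macrophages, stood at 5.08 FPKM (118 reads) and 2.2 FPKM (51 reads). It was thus lower in leukemia, with a read ratio of 0.434 (0.306 to 0.607). Its log2 ratio of -0.93 was short of the 2-fold rule and became -1.17 with 0.1 FPKM added in place of 1, which then calls it lower. Fcgr4, a receptor of monocytes, macrophages and neutrophils for some subclasses of immunoglobulin G, stood at 18.6 FPKM (205 reads) and 12.6 FPKM (139 reads), a read ratio of 0.681 (0.545 to 0.848) and a log2 ratio of -0.52. That log2 ratio was -0.09 when centred on T cell genes and turned to 0.40 when centred on macrophage markers.

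**Figure D2:**
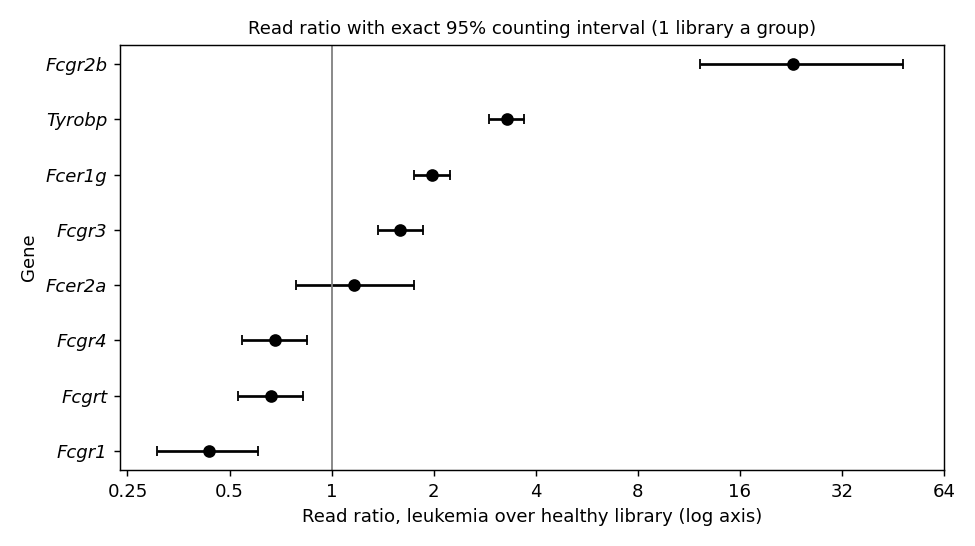
Read ratio of leukemia over healthy (log axis) for the 8 genes, points with exact 95% counting intervals from 1 library a group. The intervals of Fcgr2b, Tyrobp, Fcer1g and Fcgr3 lie above 1 and those of Fcgr4, Fcgrt and Fcgr1 below, while that of Fcer2a spans 1.

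Set against their adaptor Fcer1g, all 3 activating receptors were scarcer in the leukemia library. The FPKM ratio to Fcer1g went from 0.326 to 0.265 for Fcgr3, with a read odds ratio of 0.808 (0.665 to 0.981). The upper end of that interval is near 1, and the interval leaves out the estimated sharing of reads with Fcgr2b. For Fcgr4 the FPKM ratio went from 0.259 to 0.0893 (0.345, 0.267 to 0.443). For Fcgr1 it went from 0.0711 to 0.0156 (0.220, 0.152 to 0.315). Fcgr2b, which does not need Fcer1g, went from 0.0109 to 0.122 of its level (11.6, 6.09 to 24.7).

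The make-up of Fc gamma receptor transcripts differed between the libraries. In FPKM, the 4 receptors summed to 47.7 in healthy and 69.4 in leukemia cells. Fcgr3 made up 48.8% and 53.9% of that sum, Fcgr4 38.9% and 18.2%, Fcgr1 10.6% and 3.17%, and Fcgr2b 1.64% and 24.8%. The 3 activating receptors summed to 46.9 FPKM in healthy and 52.2 FPKM in leukemia, so they were 60.2 times the level of Fcgr2b in healthy and 3.03 times in leukemia. This ratio was chosen after the values were seen. Its read odds ratio was 0.0463 (0.0217 to 0.0879). Fcgr3 alone was 29.9 and 2.17 times the level of Fcgr2b, an odds ratio of 0.0699 (0.0325 to 0.134).

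**Figure D3:**
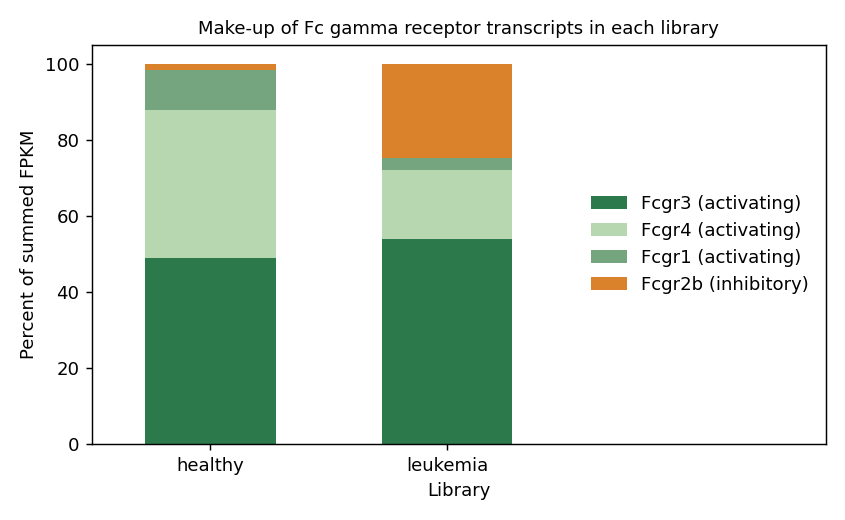
Percent of the summed FPKM of the 4 Fc gamma receptors in each library (1 library a bar). The inhibitory Fcgr2b (orange) fills 1.64% of the healthy and 24.8% of the leukemia bar, while Fcgr4 and Fcgr1 take smaller shares in leukemia.

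Fcgrt encodes the neonatal Fc receptor, which binds immunoglobulin G and albumin inside the cell, returns them to the surface and pairs with B2m. It stood at 13.8 FPKM (214 reads) in healthy and 9.12 FPKM (141 reads) in leukemia, a read ratio of 0.661 (0.531 to 0.822). Its log2 ratio of -0.55 became -0.12 when centred on T cell genes and turned to 0.35 when centred on macrophage markers. B2m stood at 5147 and 3949 FPKM, a log2 ratio of -0.38. The odds ratio of Fcgrt to B2m reads was 0.861 (0.691 to 1.07), an interval that holds 1.

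Fcer2a (CD23), a low-affinity immunoglobulin E receptor of B cells, was low at 1.34 and 1.57 FPKM, on 48.6 and 56.8 reads. Its read ratio of 1.17 (0.783 to 1.75) leaves the direction undecided at this depth. Fcer2a transcripts share 1.53% of their 50-base words with 197 other genes, and the gene overlaps Trappc5, at 19.7 and 19.4 FPKM, so its few reads are uncertain. B cell markers were low as well. The 12 of them summed to 28.7 and 36.3 FPKM, with Ms4a1 on 5 and 2 reads. Cd79a, the ITAM chain of the B cell receptor, stood at 2.37 and 2.99 FPKM, and the odds ratio of Fcer2a to Cd79a was 0.931 (0.473 to 1.82). Cr2, the CD23 partner CD21, had 0.16 and 0.09 FPKM.

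By level, the order in the healthy library was Tyrobp, Fcer1g, Fcgr3, Fcgr4, Fcgrt, Fcgr1, Fcer2a and Fcgr2b. The counting intervals overlapped between Tyrobp and Fcer1g, between Fcgr3 and Fcgr4 and between Fcer2a and Fcgr2b. In the leukemia library the order was Tyrobp, Fcer1g, Fcgr3, Fcgr2b, Fcgr4, Fcgrt, Fcgr1 and Fcer2a, with overlap between Fcgr4 and Fcgrt and between Fcgr1 and Fcer2a. The adaptors were among the more abundant transcripts of both libraries, with Tyrobp at percentile 92.4 and 98.0 of the 13717 genes and Fcer1g at 92.3 and 96.3. For comparison, Cd247, an ITAM chain of the T cell receptor, stood at 307 and 216 FPKM, and Cd3g, another such chain, at 722 and 515 FPKM.

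Fcgr2b, Fcgr4 and Fcgr3 lie close together on chromosome 1 by the RefSeq gene order (GRCm38.p6). Neighbours of this cluster differed in their values. Gm39701, next to Fcgr2b, had 1.66 and 4.39 FPKM, so it too was higher in leukemia. Fcrla stood at 0.37 and 0.54 FPKM, Cfap126 at 2.41 and 2.61 FPKM and Sdhc at 41.2 and 53.2 FPKM. Next to Fcer1g, Apoa2 had 2 reads in healthy and was listed at 0 in leukemia.

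The genes nearest to each member were sought by Euclidean distance in log2(FPKM + 1) over only 2 libraries, among 11329 protein-coding genes, which is a weak measure. Nearest to Fcgr2b were the homeobox gene Hoxa7 (0.85 and 17.6 FPKM) and Cd93 (0.58 and 16.02 FPKM). Nearest to Tyrobp were Hmga1 (76.8 and 284 FPKM) and Cst3 (85.8 and 205 FPKM), and to Fcer1g Sec61b (69.9 and 133 FPKM) and Ran (77.4 and 147 FPKM). Fcgr1 lay nearest to Fpr1, a formyl peptide receptor (5.17 and 2.12 FPKM), and Mcoln3 (4.8 and 2.09 FPKM). The other pairs were Uchl5 and Unc119 for Fcgr3, Lats2 and Birc6 for Fcgr4, Senp7 and Sh3bp2 for Fcgrt, and Apol9a and Ptpn21 for Fcer2a.

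A list of receptors that mostly signal through Fcer1g or Tyrobp, or belong to families that do, also went both ways. Of the 29 genes of this list 22 reached 1 FPKM, with 4 higher, 3 lower and a median log2 ratio of -0.12. For this list and those below, the shares over all genes at 1 FPKM or more were 6.55% higher and 1.95% lower. With a filter of 5 FPKM, 2 of this list were higher and 2 lower. The 4 higher ones at 1 FPKM were Cd300lb (0.29 and 7.84 FPKM, log2 ratio 2.78), Trem3 (0.12 and 5.66 FPKM, 2.57) and the C-type lectins Clec4e and Clec4d. These 4 reached 1 FPKM in the leukemia library only. Clec4e (Mincle) was listed at 0 in healthy and had 52 reads (2.31 FPKM) in leukemia. Counting the 0 as 3 reads makes it at least 17.4-fold higher, and the lower end of its exact 95% read ratio interval is 13.7. Clec4d had 2 and 19 reads (1.16). The 3 lower ones, named after their values were seen, were Treml4 (25.7 and 11.1 FPKM, -1.14), Pilrb1 (13.5 and 5.84 FPKM, -1.09) and Sirpb1b (2.19 and 0.52 FPKM, -1.07), of which Pilrb1 and Sirpb1b have close relatives that can share reads.

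**Figure D4:**
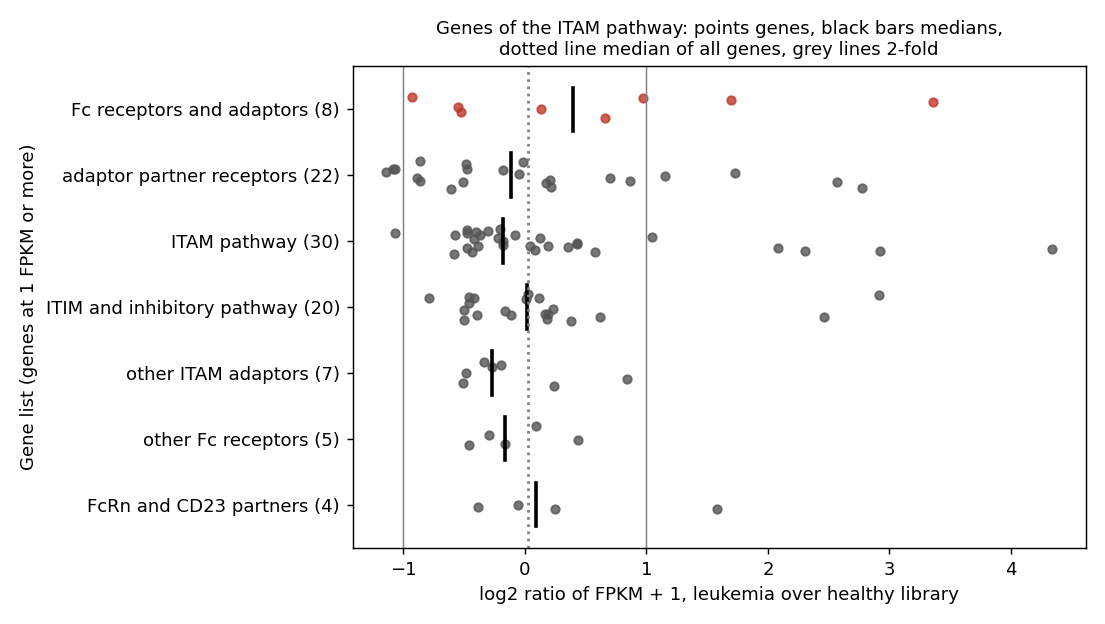
log2 ratio of FPKM + 1 (leukemia over healthy) of the 8 genes (red) and of genes in 6 related lists (grey) at 1 FPKM or more, with list medians (black bars), the median of all genes (dotted) and 2-fold lines. Most genes of each list lie within 2-fold, and those past 2.0 are few, with Lat2 the highest at 4.34.

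Downstream of ITAMs, the genes called higher are known mainly from myeloid and B cells. All 30 genes of the ITAM pathway list reached 1 FPKM, with a median log2 ratio of -0.18. Against 6.55% higher and 1.95% lower over all genes, 5 of the 30 were higher and 1 lower. Higher were the adaptor Lat2, the relative of Lat in myeloid and B cells (1.58 and 51.2 FPKM, 4.34), Card9, which links Syk to NF-kappaB (2.93 and 28.7 FPKM, 2.92), the phospholipase Plcg2 (2.76 and 17.6 FPKM, 2.30), the kinase Btk (3.03 and 16.1 FPKM, 2.08) and Syk (5.41 and 12.2 FPKM, 1.05). The T cell counterparts, given after the values were seen, were Lat (489 and 366 FPKM, -0.42), Plcg1 (52.5 and 37.5 FPKM, -0.48) and Zap70 (131 and 114 FPKM, -0.20). Another such pair did not part: Blnk had a log2 ratio of -0.47 and its T cell counterpart Lcp2 one of -0.43. The 1 lower gene was Fgr, a myeloid Src family kinase (10.4 and 4.42 FPKM, -1.07).

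On the inhibitory side, the median log2 ratio of 20 genes was 0.02. Among them 2 were called higher and 0 lower, against 6.55% and 1.95% over all genes. These were the inhibitory lectin Clec12a (17.3 and 137 FPKM, 2.91) and the adaptor Dok3 (5.02 and 32.1 FPKM, 2.46). Clec4a2 (16.5 and 9.14 FPKM, -0.79) and Ceacam1 (11.7 and 18.5 FPKM, 0.61) were under 2-fold. Inpp5d, the phosphatase used by Fcgr2b, stood at 45.8 and 49.8 FPKM. 

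Other ITAM chains were listed together with Hcst, which has no ITAM. These 7 genes had a median log2 ratio of -0.27 with none called. The largest ratios were those of Cd79b (12.03 and 22.4 FPKM, 0.84), Cd247 (-0.51), Cd3g (-0.49) and Cd3d (-0.34). Of 12 other Fc receptors and relatives only 5 reached 1 FPKM and none of these was called, with a median of -0.16. Fcer1a and Ms4a2, the chains that join Fcer1g in the high-affinity immunoglobulin E receptor of mast cells and basophils, stood at 0.44 and 0.57 FPKM and at 1.47 and 2.35 FPKM. Fcmr (-0.46), Trim21, a cytosolic antibody receptor (-0.29), and Fcrl1 (-0.16) were under 2-fold. Of the 5 partners of Fcgrt and Fcer2a, 4 reached 1 FPKM and 1 was higher, the integrin chain Itgam (1.01 and 5.01 FPKM, 1.58), while Itgax (0.25) and Adam10 (-0.06) were under 2-fold.

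Markers of some other cells also differed between the libraries. The complement genes C1qa, C1qb and C1qc of macrophages summed to 505 FPKM in healthy and 267 FPKM in leukemia, a read ratio of 0.529 (0.504 to 0.555). The read ratio was 0.434 for Fcgr1, 0.681 for Fcgr4 and 0.661 for Fcgrt. It was 22.9 for Fcgr2b, 3.28 for Tyrobp, 1.98 for Fcer1g, 1.60 for Fcgr3 and 1.17 for Fcer2a. Cd68, the 1 macrophage marker of 16 with a log2 ratio above 0, had a read ratio of 1.74. Ly6c2 of monocytes stood at 23.7 and 437 FPKM, Ms4a6c at 47.0 and 145 FPKM, and Csf1r, also a macrophage gene, at 82.1 and 52.4 FPKM. The progenitor genes Mpo, Ctsg and Elane stood at 0.83, 0.45 and 1.12 FPKM in healthy and 357, 304 and 242 FPKM in leukemia. Neutrophil markers summed to 16.8 and 20.6 FPKM, with 2 of 10 called higher, S100a8 on 1 and 6 reads and Mmp8 at 0 and 23 reads. S100a9 had 1 and 3 reads, and Camp was listed in neither library. Natural killer cell markers summed to 52.0 and 51.2 FPKM. Basophil and mast cell markers went from 9.31 to 50.6 FPKM with 4 of 9 higher and 1 lower. Higher were Cpa3 (0.54 and 19.4 FPKM), Mcpt8 (2.04 and 12.06 FPKM), Gata2 (0.72 and 9.98 FPKM) and Prss34 (1.09 and 3.52 FPKM). Il4, on 9 and 1 reads, was lower. Not called were Fcer1a, on 4 and 5 reads, Ms4a2 (log2 ratio 0.44), Cd200r3 (0.17) and Hdc (0.73). Dendritic cell markers went from 10.2 to 30.7 FPKM with 2 of 10 higher. These were Flt3 (0.31 and 17.8 FPKM), also on the progenitor list, and Clec10a (0.58 and 5.68 FPKM). The median log2 ratio of the 6 dendritic cell markers at 1 FPKM or more was 0.03. Plasma cell markers went from 80.8 to 107 FPKM with none called, Mzb1 (3.2 and 7.16 FPKM, 0.96) being just short. Whether the Fc receptor transcripts came from these cells or from Treg cells was not tested.

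**Figure D5:**
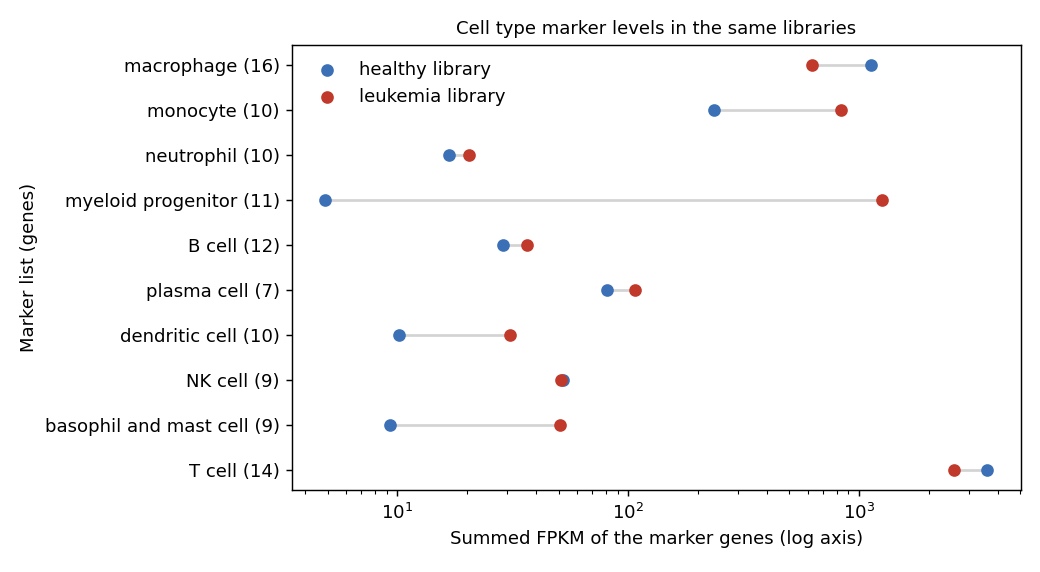
Summed FPKM (log axis) of the genes of 10 marker lists in the healthy (blue) and leukemia (red) library, with the length of each list in parentheses. Macrophage markers are at 1132 and 628 FPKM in healthy and leukemia, and myeloid progenitor markers at 4.89 and 1252 FPKM.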

How the data were processed

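RNA of sorted splenic Treg cells was sequenced in 1 library a group, from 1 µg of total RNA on a BGIseq-500 per the labels' protocols. Bowtie2 2.2.5 and RSEM were used, per the submitters' processing notes; the sources used here do not give the RSEM version, genome build or annotation. The authors deposited expected counts (reads estimated per gene), FPKM values and a gene length, per the file headers. Of 23248 gene IDs, 21713 matched a RefSeq symbol by ID and 22 by accession. A gene listed in 1 table only was taken as 0 in the other.

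The measure was the log2 ratio of FPKM + 1, called at 1 or more or -1 or less, over genes that reached 1 FPKM in at least 1 library. Estimated counts were rounded to whole numbers for exact 95% intervals of read ratios and conditional odds ratios (scipy 1.17.1), which cover counting error only. A 0 was set to 3 reads for a bound. Alternatives were a pseudocount of 0.1 FPKM, TPM, the median ratio, centring on T cell genes, TMM-scaled CPM (edgeR 4.0.16), no filter and 5 FPKM. Protein sequences were not used here.

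The members and lists were chosen with earlier results of these data known. Named were all members, up to 4 genes of each pathway list by absolute log2 ratio, the 2 genes nearest each member, up to 3 genes of each marker list by FPKM, and Syk, Zap70, Spi1, B2m and Cr2. Some genes named by the marker rule are given by their list's sum.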

Additional observations from a re-analysis of the deposited data

How the results depend on the processing

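No paired analysis was possible because each group has 1 library. Under the 7 alternatives named for the deposited scale, pseudocount, unit and filter, Fcgr2b and Tyrobp stayed at least 2-fold higher and 0 members changed the sign of their log2 ratio. Centring on T cell receptor signalling genes, whose median log2 ratio was -0.46, moved the median of all genes to 0.44, raised the members called higher to 4 by adding Fcer1g (1.43) and Fcgr3 (1.11), and left 0 pathway genes called lower in place of 4. The number of members called lower went from 0 to 1, which was Fcgr1, with a pseudocount of 0.1 FPKM (-1.17), on TPM (-1.10) and on TMM-scaled CPM (-1.09). Pathway genes called higher, 12 on the deposited scale, ranged from 10 to 17. Centring on the 16 macrophage markers, chosen after seeing the data, gave 4 members called higher, and put Fcgr1 at -0.20, Fcgr4 at 0.40 and Fcgrt at 0.35. With 10.2 reads in the healthy library, the interval of the Fcgr2b read ratio was wide, from 12.2 to 48.4, and covers counting error only. It leaves out differences between mice or sorts and the estimated sharing of reads with Fcgr3.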
